A study of Mus musculus with 24 samples.

Results

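Transcripts of 9 genes of transforming growth factor-beta (TGF-beta) signalling were examined in mouse brain: the ligand genes Tgfb1, Tgfb2 and Tgfb3, the receptor genes Tgfbr1 and Tgfbr2, the co-receptor gene Eng, the inhibitor gene Smad7, and the target genes Fn1 and Snai1. The members were looked up by gene name, and all 9 were found among the 54532 gene identifiers of the expression table. All 9 were above 0 in enough mice to be tested. Male wild-type C57Bl6 mice, aged 8 to 12 weeks, carried an osmotic minipump for 2 weeks. The pump delivered saline in the vehicle groups and, in the others, a daily 0.7 mg/kg of angiotensin II, a peptide that raises blood pressure. After implantation they received either saline or 1000000 human amnion epithelial cells (AECs, taken from the membrane around the fetus) in the tail vein. The 4 groups of 6 mice were therefore vehicle, angiotensin II, vehicle + AEC and angiotensin II + AEC. RNA was taken from brain hemispheres, so vessels, meninges and all brain cells are mixed in each value. The comparisons measure angiotensin II without cells, AECs with and without angiotensin II, and the interaction of both treatments.

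TGF-beta ligands are secreted in a latent form and, once released, bind a type II receptor, which recruits and phosphorylates the type I receptor. The active complex phosphorylates receptor Smads, which enter the nucleus with Smad4 and switch on genes of the extracellular matrix and of mesenchymal change. In vessels, endoglin (Eng) tunes this signal in endothelial cells, and Smad7 is induced by the pathway and blocks its receptors. In the brain the ligands are known to act on microglia, astrocytes and the vessel wall.

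Depth and library properties bear on every value that follows. Expression is given in FPKM, fragments per kilobase of gene length scaled to the size of the library, and the fragments behind the values numbered 16536449 to 25308700 per mouse. Total FPKM was 338334 to 348597 in 6 of the 24 libraries and 277116 to 298301 in the other 18. The high-total set held vehicle replicates 5 and 6, angiotensin II replicate 5, vehicle + AEC replicate 6 and angiotensin II + AEC replicates 5 and 6, so that each group had 1 or 2 of them. The labels name no such sets, which were defined here from the same table. Neuronal, astrocytic, microglial and endothelial marker genes were all present, as in brain, and each of the 62 genes on 9 marker lists had a mean of at least 0.1 FPKM.

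Eng was the most abundant of the 9 transcripts and Snai1 the least. On the per-length FPKM scale, the mean level over 24 mice was 9.78 for Eng, 6.13 for Smad7, 5.84 for Tgfb3, 4.00 for Fn1, 2.45 for Tgfbr2, 2.34 for Tgfbr1, 2.19 for Tgfb2, 2.02 for Tgfb1 and 0.600 for Snai1. Eng lay above 81.7% of the genes tested and Snai1 above 43.9%. Tgfb3 exceeded Fn1, Fn1 exceeded Tgfbr2, and Tgfb1 exceeded Snai1 in all 24 mice, and Eng exceeded Smad7 in 23. Other neighbours in this order were not separated beyond the spread of the mice. Smad7 was above Tgfb3 in 14 mice, all of them in the low-total set. Tgfbr2 exceeded Tgfbr1 in 14 mice, and Tgfbr1 exceeded Tgfb2 in 18. Tgfb2 was above Tgfb1 in each of the 18 low-total libraries and in 0 of the 6 high-total libraries.

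**Figure D1:**
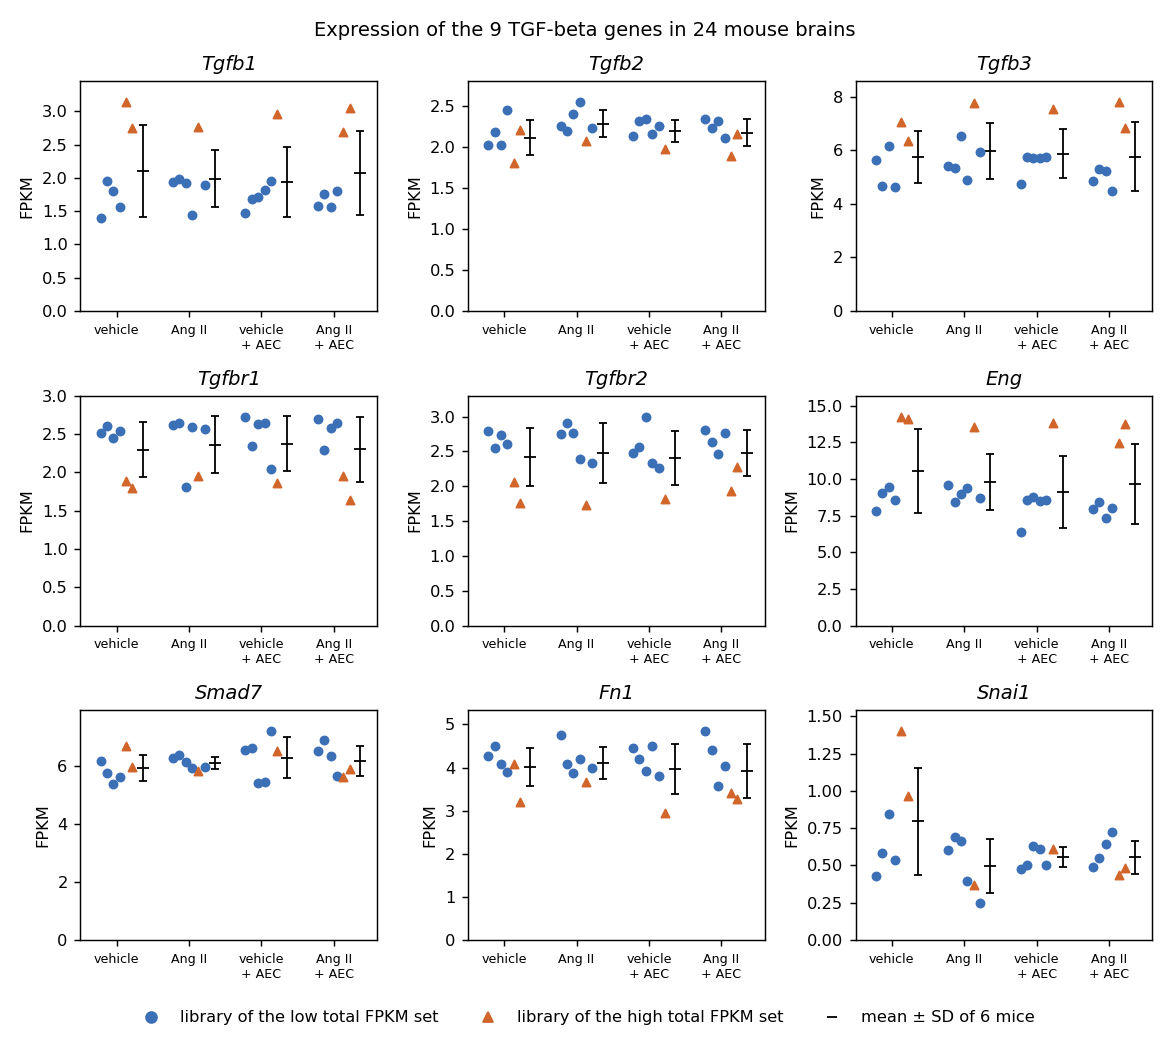
Expression of each of the 9 genes in FPKM (vertical axes from 0) in the 24 mice by group, with circles for the 18 libraries of low total FPKM, triangles for the 6 of high total FPKM, and the mean ± SD of 6 mice beside each group. The group means of Tgfb1 lie between 1.93 and 2.10 FPKM, while its triangles lie between 2.69 and 3.14 and its circles between 1.397 and 1.98.

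The 250 bases before the start of Eng, Tgfb1 and Snai1 are shown. Of the members, Tgfb1 and Eng differed most between the low-total and high-total sets, and Snai1 most between angiotensin II and vehicle. Tgfb1 passed no threshold in a treatment comparison below. They come from RefSeq on GRCm38.p6, plus strand, 5′ to 3′: chr2:32646345-32646594 for Eng, chr7:25686752-25687001 for Tgfb1 and chr2:167537945-167538194 for Snai1. Capitals mark CAGAC, the core of the Smad binding element, and its reverse complement GTCTG.
Eng: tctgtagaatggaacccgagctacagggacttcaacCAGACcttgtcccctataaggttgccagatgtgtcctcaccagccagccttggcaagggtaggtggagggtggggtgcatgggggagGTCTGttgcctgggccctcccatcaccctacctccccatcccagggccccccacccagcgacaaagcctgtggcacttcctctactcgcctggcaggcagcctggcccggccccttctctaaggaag
Tgfb1: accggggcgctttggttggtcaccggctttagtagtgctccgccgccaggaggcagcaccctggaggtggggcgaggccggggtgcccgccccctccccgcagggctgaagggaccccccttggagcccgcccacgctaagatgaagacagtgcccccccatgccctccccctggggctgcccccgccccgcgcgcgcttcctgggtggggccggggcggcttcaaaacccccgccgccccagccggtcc
Snai1: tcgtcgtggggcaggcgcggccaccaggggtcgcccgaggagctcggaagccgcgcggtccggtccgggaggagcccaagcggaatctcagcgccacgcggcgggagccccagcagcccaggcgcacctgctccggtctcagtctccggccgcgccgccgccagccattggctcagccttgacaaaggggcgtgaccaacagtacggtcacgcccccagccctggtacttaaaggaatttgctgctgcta
The Eng window held the motif 2 times, and the Tgfb1 and Snai1 windows held 0 matches. Over 7 such windows of 6 members found in the reference (Tgfbr1 has more than 1 start), 4 held at least 1 match, beside 42.2% of all 32851 promoters. A match of 5 letters is a description of the sequence and says nothing of binding.

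The genes lie on 7 chromosomes of GRCm38. Among the ligands, Tgfb1 is on chromosome 7 (25687002 to 25705077), Tgfb2 on chromosome 1 (186622792 to 186705989) and Tgfb3 on chromosome 12 (86056745 to 86079041). The type I receptor gene Tgfbr1 is on chromosome 4 (47353222 to 47414931), the type II receptor gene Tgfbr2 on chromosome 9 (116084293 to 116175360) and Eng on chromosome 2 (32646595 to 32682669). Smad7 is on chromosome 18 (75367529 to 75395935). Fn1, which encodes the matrix protein fibronectin, is on chromosome 1 (71585520 to 71653200), and Snai1, which encodes a transcriptional repressor of epithelial genes, is on chromosome 2 (167538195 to 167542814). Exons of genes on the opposite strand overlap Tgfb2 by 124 bases (Gm29491), Tgfb3 by 163 and 257 bases (Gm37804 and Gm48008), Eng by 61 bases (Fpgs) and Fn1 by 292 bases (Apol7d). Whether reads were counted by strand is not given in the sources used here, so some reads of these genes could belong to their partners.

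Tgfb3 supplied most of the ligand transcripts. As a share of the summed FPKM of the 3 ligand genes, Tgfb3 made up 57.9% ± 2.76 (SD, n = 24; range 53.2% to 63.0%), Tgfb2 22.3% ± 3.903 and Tgfb1 19.9% ± 2.92. The mean Tgfb3 share was 57.6% with vehicle, 58.1% with angiotensin II, 58.6% with vehicle + AEC and 57.2% with angiotensin II + AEC, and the ranges of the 4 groups overlapped. Between the library sets, the Tgfb1 share went from 18.5% ± 1.74 (n = 18) to 23.9% ± 1.78 (n = 6), and the Tgfb2 share from 24.2% ± 2.21 to 16.7% ± 1.73. The Tgfb2 ranges of the sets, 20.3% to 28.7% and 15.1% to 19.5%, did not overlap. The order of Tgfb1 and Tgfb2 in a mouse thus followed its library set.

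**Figure D2:**
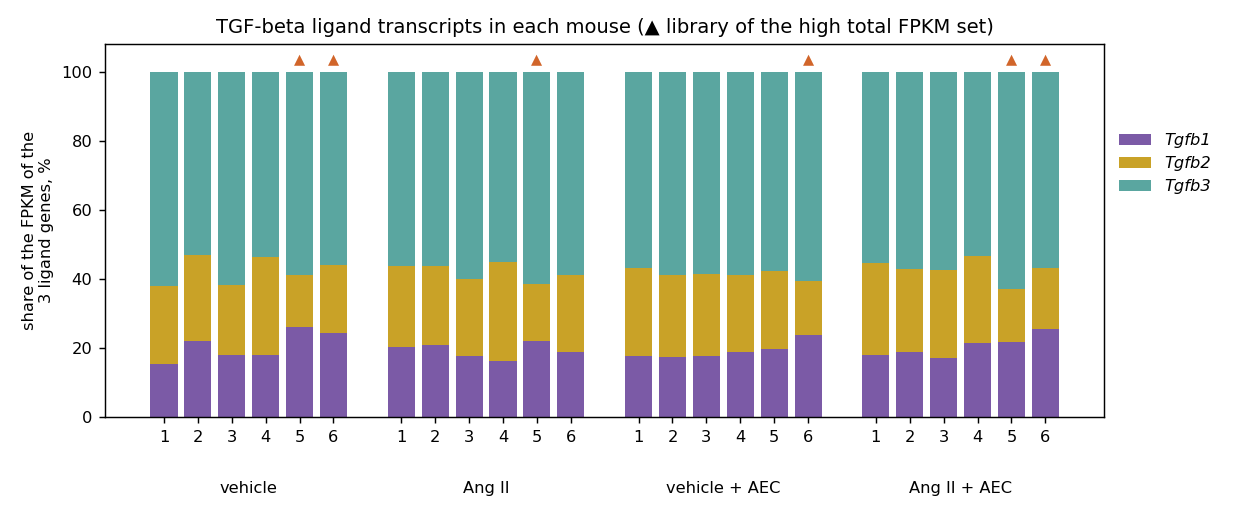
Share of each ligand gene in the summed FPKM of Tgfb1, Tgfb2 and Tgfb3 (vertical axis, percent) for each mouse, numbered by replicate within its group, with an orange triangle over the 6 libraries of high total FPKM. Tgfb3 takes 53.2% to 63.0% in every mouse, and the Tgfb2 share is 15.1% to 19.5% under the triangles.

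The spread between mice was set beside counting error and beside the library sets. Snai1 rested on 8 to 40 reads per mouse (mean 19), for which counting alone gives a coefficient of variation of 24.5%, and the variation among mice of one group and set was 25.9%. Tgfb2, with a mean of 247 reads, varied by 7.07% against 6.42% from counting. Eng had a mean of 772 reads and a counting error of 3.72%. Its coefficient of variation was 25.8% within groups and 7.18% within groups and library sets. The same step took Tgfb1 from 28.7% to 10.3% and left Smad7 nearly as it was, at 8.30% and 8.23%, above its counting error of 4.34%. These values cover counting error and mouse-to-mouse spread together, and reads without molecular identifiers are not independent molecules.

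Angiotensin II was first compared with vehicle in mice without cells (6 against 6). The threshold of 0.05 on adjusted p-values from limma was passed by 0 of the 9 members and by 0% of all genes tested, and that on unadjusted p-values by 1 member and by 2.21% of all genes. That gene was Snai1. Its lowest, median and highest values were 0.431, 0.716 and 1.4 FPKM with vehicle and 0.248, 0.499 and 0.690 FPKM with angiotensin II. The groups overlapped, and the 3 highest values, 1.4, 0.968 and 0.848, were those of vehicle replicates 5, 6 and 3. Snai1 had 0.795 ± 0.358 FPKM with vehicle and 0.495 ± 0.182 with angiotensin II (SD, n = 6 each), a log2 fold change of -0.56 (SE 0.228, adjusted p = 0.994 in limma). A two-sided exact permutation test of the same mice gave p = 0.0952. In whole hemispheres, fewer cells of a type and less RNA per cell cannot be told apart.

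The Snai1 difference depended on single mice. Over the 18 low-total libraries alone the log2 fold change was -0.21 (exact permutation test, p = 0.556), with 0.600 ± 0.177 FPKM with vehicle (n = 4) and 0.520 ± 0.192 with angiotensin II (n = 5). With all 24 mice and the library set as a term it was -0.54 and past the unadjusted threshold, as were 3.46% of all genes. That fit stayed past it in 18 of 24 leave-one-out fits, and lost it when replicate 3, 5 or 6 of the vehicle group or replicate 4, 5 or 6 of the angiotensin II group was dropped. Without the term, leaving out vehicle replicate 5 gave -0.39, leaving out vehicle replicate 6 gave -0.49, and leaving out angiotensin II replicate 6, the lowest mouse, gave -0.42, none of which passed the unadjusted threshold. The other 8 members had log2 fold changes of -0.08 to 0.11 with angiotensin II, and none passed either threshold. Among the ligands, Tgfb1 had 2.10 ± 0.693 FPKM with vehicle and 1.99 ± 0.430 with angiotensin II, Tgfb2 2.11 ± 0.215 and 2.28 ± 0.168, and Tgfb3 5.75 ± 0.964 and 5.98 ± 1.03 (SD, n = 6 each). Fn1 was 4.01 ± 0.442 and 4.10 ± 0.369 FPKM, and Smad7 5.94 ± 0.459 and 6.10 ± 0.209. Of 7 neutrophil marker genes, 3 were higher with angiotensin II at the unadjusted threshold, with and without the set term, and their summed level was 5.91 to 14.3 FPKM with vehicle and 7.37 to 25.7 with angiotensin II. Their part in the members' values was not tested.

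The effect of AECs in hypertensive mice was measured as angiotensin II + AEC against angiotensin II. These groups share the angiotensin II mice with the comparison above. The unadjusted threshold was passed by 0 of the 9 members and by 2.54% of all genes, and the adjusted one by 0 members and 0% of genes. Eng had 9.78 ± 1.90 FPKM with angiotensin II and 9.67 ± 2.72 with angiotensin II + AEC (SD, n = 6 each), a log2 fold change of -0.04 (SE 0.188; exact permutation test, p = 0.872). Within the low-total set the values were 8.44 to 9.62 FPKM in 5 mice with angiotensin II and 7.36 to 8.46 FPKM in 4 mice with angiotensin II + AEC. Only the ends of these ranges overlapped, since angiotensin II replicate 2, at 8.44, lay just under angiotensin II + AEC replicate 2, at 8.46.

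The Eng difference was small, and it passed the unadjusted threshold only with the library set held fixed. The 18 low-total libraries gave a log2 fold change of -0.18 (exact permutation test, two-sided p = 0.0317). In limma over these 18 libraries, 1259 of 27286 genes passed the unadjusted threshold, Eng among them. The fit with the library set as a term gave -0.16 (SE 0.0650, adjusted p = 1 in limma), past the unadjusted threshold, as were 3.9% of all genes in that fit. With single mice left out it stayed past that threshold in 21 of 24 fits, the exceptions being those without angiotensin II replicate 1, angiotensin II replicate 4 or angiotensin II + AEC replicate 3. With the same term, 0 of 8 endothelial marker genes passed the unadjusted threshold here, and in the low-total set they summed to 60.5 to 75.7 FPKM with angiotensin II (n = 5) and 64.6 to 73.9 with angiotensin II + AEC (n = 4). The part of endothelial content in the Eng values was not tested. The other members had 95% intervals that included 0 in both fits.

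AECs without angiotensin II were compared with vehicle, and these groups share the vehicle mice with the first comparison. Again 0 of 9 members passed the unadjusted threshold, beside 2.41% of all genes, or 3.54% with the library set as a term, and 0% passed the adjusted one. Snai1, with 0.556 ± 0.0686 FPKM in the vehicle + AEC mice (SD, n = 6), had a log2 fold change of -0.36 (SE 0.228; exact permutation test, p = 0.158). Eng was 10.5 ± 2.88 FPKM with vehicle and 9.11 ± 2.48 with vehicle + AEC (SD, n = 6 each), with a log2 fold change of -0.21 (SE 0.188) that became -0.09 (SE 0.0650) with the library set as a term. Vehicle + AEC replicate 1 had the lowest Eng value of all mice, 6.40 FPKM from 472 reads.

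Whether AECs acted differently with and without angiotensin II was tested as an interaction. None of the 9 members passed an unadjusted threshold of 0.05 in limma, where 2.54% of all genes did, and 0% passed the adjusted one. Vehicle and angiotensin II + AEC, which enter the interaction with the same sign, had 2 high-total libraries each, and the other groups 1 each. The interaction without the library set as a term therefore includes part of the difference between the sets. With the library set as a term, 3.41% of all genes passed the unadjusted threshold and so did Tgfb3, with an interaction of -0.25 on the log2 scale (SE 0.112, adjusted p = 1 in limma). In the low-total set mean Tgfb3 was 5.28 FPKM with vehicle (n = 4), 5.62 with angiotensin II (n = 5), 5.53 with vehicle + AEC (n = 5) and 4.97 with angiotensin II + AEC (n = 4). The ranges of these 4 groups, between 4.49 and 6.52 FPKM over all of them, overlapped. The interaction over these 18 libraries was -0.24 and not past the unadjusted threshold, and with the set as a term it stayed past it in 11 of 24 leave-one-out fits.

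Averaging over the other treatment gave 12 mice against 12 and the narrowest intervals. For angiotensin II averaged over AEC, 8 members (all but Snai1) had log2 differences between -0.01 and 0.05. With the library set as a term their 95% intervals lay between -0.13 and 0.15, which is 0.914-fold to 1.11-fold. Snai1 had a difference of -0.29 (SE 0.161). No member passed the unadjusted threshold, beside 2.39% of all genes (4.43% with the set as a term) and 0% at the adjusted threshold. For AECs averaged over angiotensin II, 2.44% of all genes (4.11% with the set as a term, 0% adjusted) and 0 members passed. With the set as a term Eng did, at -0.12 (SE 0.0455, adjusted p = 0.9999 in limma), and it stayed past the unadjusted threshold in 24 of 24 leave-one-out fits, between -0.14 and -0.09. Without vehicle + AEC replicate 1 it was -0.09. Over the 18 libraries the value was -0.14, also past the unadjusted threshold, as were 1188 of 27286 genes. With the term, 0 of 8 endothelial markers passed it in the same comparison. For vehicle + AEC against vehicle, 1 of 8 was lower with the term, beside 3.54% of all genes past the threshold. Endothelial sums in the low-total set were 64.5 to 73.5 FPKM with vehicle (n = 4) and 55.4 to 71.3 with vehicle + AEC (n = 5). For angiotensin II averaged over AEC, 6 of 7 neutrophil markers were higher at the unadjusted threshold. For AECs averaged over angiotensin II, 2 of 7 were higher, and 3 with the term. For angiotensin II + AEC against angiotensin II and for the interaction, 1 of 7 was higher. Neutrophil sums in the low-total set were 7.35 to 11.9 FPKM with vehicle and 7.37 to 25.7 with angiotensin II. With vehicle + AEC they were 9.57 to 17.1, and with angiotensin II + AEC 10.01 to 49.5. The part of either cell type was not tested. Eng was the member with the largest change of precision between the fits, its SE falling from 0.133 to 0.0455.

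**Figure D3:**
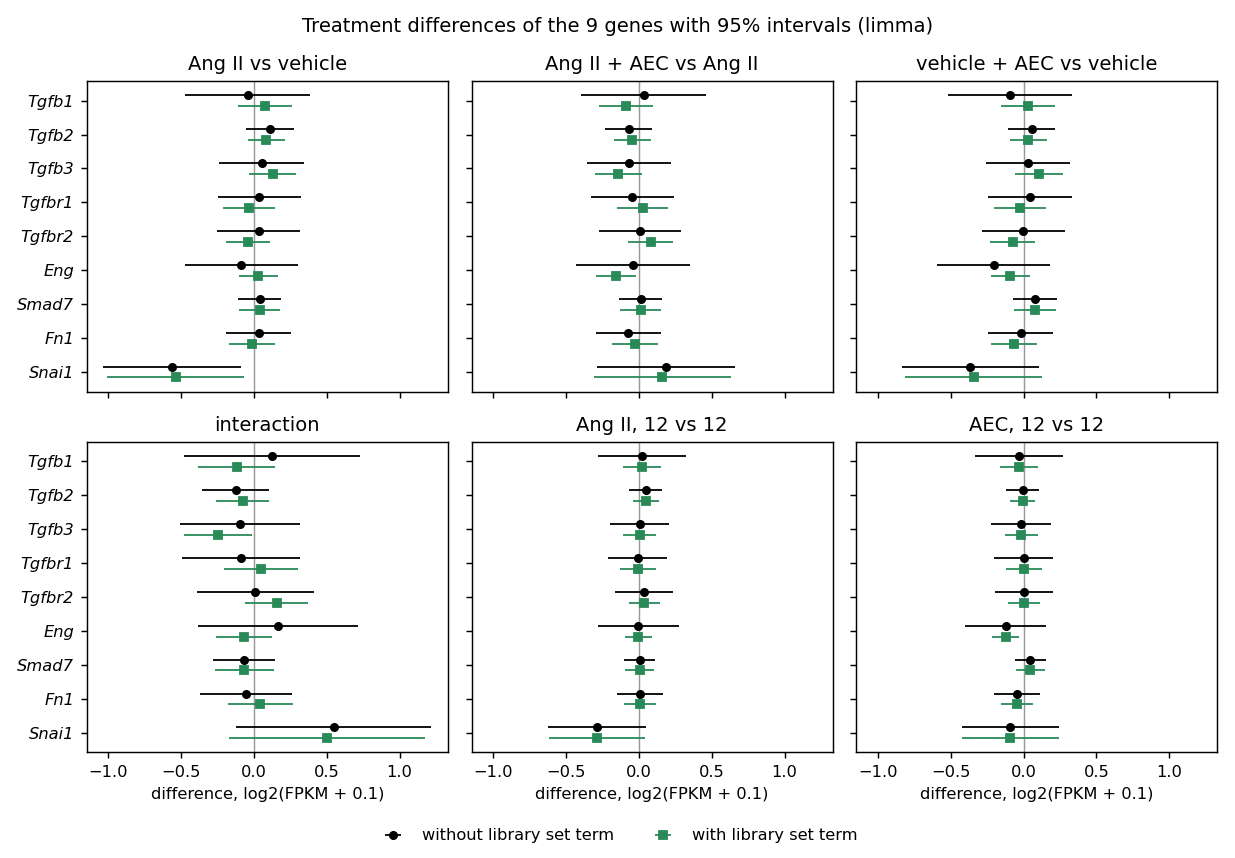
Difference of each gene in log2(FPKM + 0.1) (horizontal axes) in the 6 comparisons, with 95% intervals from limma, without (black circles) and with (green squares) the library set as a term. Snai1 has the widest intervals, and its interval leaves out 0 for angiotensin II against vehicle. With the term, the interval of Eng leaves out 0 for angiotensin II + AEC against angiotensin II and for AECs averaged over 12 against 12 mice, and that of Tgfb3 for the interaction.

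Other genes of the pathway were taken from 6 lists by role (latency and activation, receptors, Smads, feedback and co-regulators, matrix and contractile targets, and transcription factor and cell cycle targets), 76 genes in all, each of which was tested. None passed the adjusted threshold in limma in any of the 6 treatment comparisons. The unadjusted threshold was passed by 1 gene for angiotensin II against vehicle, 1 for the interaction, 1 for angiotensin II averaged over AEC and 0 in each of the other comparisons. This is a share of at most 1.32%, beside 2.21% to 2.54% of all genes. With the library set as a term the numbers were 2, 1, 3, 1, 6 and 1 for the 6 comparisons in the order given above, shares of 1.32% to 7.89%, beside 3.41% to 4.43% of all genes. The highest share was that for angiotensin II averaged over AEC. Their median log2 differences were -0.00 for angiotensin II against vehicle, beside 0.02 for all genes, and 0.02 for angiotensin II + AEC against angiotensin II, beside -0.02 for all genes. The gene with the interaction was Col1a1, a matrix target.

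Col1a1, which encodes a chain of type I collagen, lies on chromosome 11 (94936224 to 94953042). Its interaction of angiotensin II and AEC was 0.48 on the log2 scale with the library set as a term. Without the term it was 0.78 (SE 0.345, adjusted p = 0.931 in limma), past the unadjusted threshold. Mean Col1a1 was 2.25 FPKM in the low-total and 4.46 FPKM in the high-total set. Since vehicle and angiotensin II + AEC held more high-total libraries, the value without the term includes part of this set difference. Col1a1 had 187 to 740 reads per mouse. In the low-total set Col1a1 was 2.33 ± 0.143 FPKM with vehicle (n = 4), 2.28 ± 0.292 with angiotensin II (n = 5), 1.97 ± 0.277 with vehicle + AEC (n = 5) and 2.48 ± 0.127 with angiotensin II + AEC (n = 4). The lowest mean was that of the mice given cells without angiotensin II, and its range, 1.56 to 2.20 FPKM, lay below that of the mice given both, 2.32 to 2.60. All 24 leave-one-out fits with the term stayed past the unadjusted threshold, against 15 of 24 without it. Col1a1 was named for its unadjusted p-value in these same mice, so its ranges and leave-one-out fits are a description and no independent result. Fn1, the matrix gene among the 9 members, had an interaction of -0.05 (SE 0.153) and of 0.04 (SE 0.108) with the term.

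**Figure D4:**
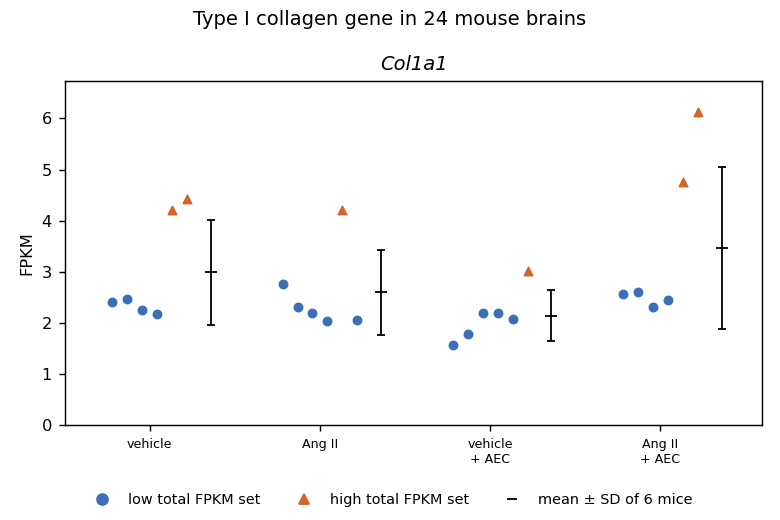
Col1a1 in FPKM (vertical axis from 0) in the 24 mice by group, with circles for libraries of low and triangles for libraries of high total FPKM and the mean ± SD of 6 mice beside each group. The triangles lie between 3.02 and 6.12 FPKM and the circles between 1.56 and 2.76.

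The library sets differed in far more genes than the treatments did. With treatment in the fit, 14536 of 27286 genes (53.3%) differed between the sets at an adjusted p-value under 0.05 in limma, 6082 higher and 8454 lower in the high-total set. All high-total libraries have replicate number 5 or 6, and 9014 genes did once replicate number entered the fit as a block. Of the members, 7 of 9 differed, 3 higher and 4 lower, and with the block 3 of 9 (Tgfb1, Tgfb3 and Eng). The sets were defined from the same table and are no condition, so these tests describe these libraries. Tgfb1 was 1.73 ± 0.191 FPKM in the low-total set (n = 18) and 2.89 ± 0.184 in the high-total set (n = 6), with a log2 difference of 0.73 (SE 0.0735) and no overlap. Eng was 8.48 ± 0.781 and 13.7 ± 0.642 FPKM, a log2 difference of 0.69 (SE 0.0536), again with no overlap, at 6.40 to 9.62 and 12.5 to 14.3 FPKM. Overlap between the sets was looked at for the members only, so the share of all genes without overlap is not known here. Tgfb3 was higher in the high-total set by 0.45 on the log2 scale.

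The receptor genes had lower values in the high-total set. Tgfbr1 was 2.498 ± 0.238 FPKM in the low-total and 1.85 ± 0.116 in the high-total set, and Tgfbr2 was 2.62 ± 0.210 and 1.93 ± 0.210 FPKM, with log2 differences of -0.42 and -0.44. In the blocked fit these were -0.30 and -0.28, not past the threshold (adjusted p = 0.0887 and 0.0565 in limma). Within the low-total set the lowest Tgfbr1 values, 1.82 FPKM in angiotensin II replicate 3 and 2.04 FPKM in vehicle + AEC replicate 5, were those of the libraries with the highest totals of that set, 296934 and 298301. Not all members followed. In these libraries Tgfbr2 was 2.77 and 2.27 FPKM and Eng 8.94 and 8.59 FPKM, beside low-total set means of 2.62 and 8.48. Fn1 (-0.29) and Tgfb2 (-0.14) were lower too, but the Tgfb2 difference was -0.08 and not past the threshold (adjusted p = 0.191 in limma) after rescaling each library by its median ratio. Neither gene passed it with the block. Smad7 (-0.00) and Snai1 (0.14) had adjusted p-values of 0.984 and 0.568 in limma. Longer genes tended to be lower in the high-total set. FPKM divides reads by gene length, so a library with more reads on short genes has a higher total. The sets were split by that total, so this relation is in part built in. The set difference had a Spearman correlation of -0.52 with gene length and 0.45 with GC content across 13633 genes, and of -0.72 and 0.50 across the 9 members, as a description of points that share the same libraries.

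Among the 76 other pathway genes, 54 differed between the sets at an adjusted p-value under 0.05, 22 higher and 32 lower. Over all 27286 genes 14536 (53.3%) did, 6082 higher and 8454 lower. All 6 Smad genes that differed, of 7, were lower, as were 8 of 10 receptors, while 9 of 16 matrix and contractile targets were higher. Smad4, the shared partner of the receptor Smads, went from 8.201 ± 0.670 to 4.52 ± 0.365 FPKM. Acvrl1, the endothelial type I receptor that works with endoglin, went from 4.47 ± 0.354 to 7.10 ± 0.473 FPKM. Acta2, smooth muscle actin, went from 7.51 ± 1.16 to 25.8 ± 3.33 FPKM, and the transcription factor gene Zeb1 from 6.62 ± 0.321 to 3.48 ± 0.216 FPKM. Marker genes of most cell types differed between the sets as well. Of 7 astrocyte markers, 3 were higher and 4 lower in the high-total set at the adjusted threshold. For 5 neuronal markers these numbers were 3 and 2, for 6 choroid plexus markers 3 and 3. For 8 microglial markers they were 4 and 3, and no neutrophil marker passed. Neuronal markers summed to 704.5 to 773 FPKM in the low-total and 796 to 839 in the high-total set. Astrocyte markers summed to 642 to 715 and 738 to 791, and choroid plexus markers to 358 to 779.5 and 842 to 1131. At the adjusted threshold, 4 of 8 mural cell markers were higher and 1 lower in the high-total set, 4 of 8 endothelial markers were higher and 2 lower, and 5 of 8 meningeal fibroblast markers were higher. Mural cell markers summed to 69.1 to 81.0 FPKM in the low-total and 100 to 113 in the high-total set, endothelial markers to 55.4 to 75.7 and 88.4 to 107, and meningeal fibroblast markers to 23.8 to 30.4 and 34.3 to 45.5. All 5 erythroid genes were higher, with sums of 32.9 to 190 and 123 to 204 FPKM. Mitochondrial genes took 4.79% to 5.75% and 6.17% to 6.85% of the reads. The part of cell content, gene length or GC content in the members' set differences was not tested.

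**Figure D5:**
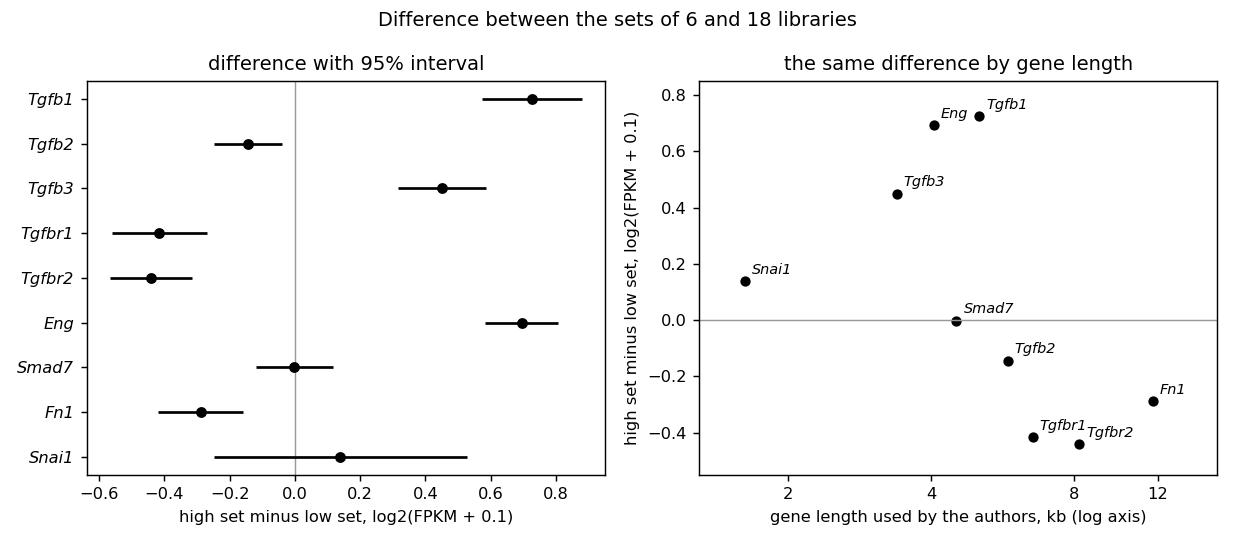
Left, difference of each gene between the 6 libraries of high and the 18 of low total FPKM, in log2(FPKM + 0.1) with 95% intervals from limma. Right, the same difference against the gene length used by the authors (kilobases, log axis), from 0.73 for Tgfb1 to -0.44 for Tgfbr2.

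With the library sets separated, no pair of members passed the adjusted threshold. Over the 36 pairs of members, 0 had an adjusted p-value under 0.05 by permutation in the 18 low-total libraries, and 0 in the 6 others by exact permutation. Group means were not removed and values were permuted across the 4 groups, so differences between groups can enter these correlations. Of the 36 pairs, 3 had an unadjusted p-value under 0.05 in the 18 libraries. Tgfb3 and Tgfbr1 had r = -0.598 (permutation p = 0.00509, adjusted 0.183) and rho = -0.540 (permutation p = 0.0226, adjusted 0.508), with r = -0.403 without the 2 mice farthest from the median of Tgfb3. Tgfb1 and Eng had r = 0.512 (permutation p = 0.0263, adjusted 0.387) and rho = 0.435 (permutation p = 0.0745, adjusted 0.508), and r = 0.718 without the 2 farthest mice. Tgfbr2 and Snai1 had r = 0.499 (permutation p = 0.0323, adjusted 0.387) and rho = 0.406 (permutation p = 0.0968, adjusted 0.508), and r = 0.520 without the 2 farthest mice.

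The genes whose log2 values were most like those of each member were sought over the same 18 libraries, among 13649 genes with a mean of at least 1 FPKM. They are a description, given with no p-value, and the same libraries, depth and base composition lie behind all points. For the ligands, Tgfb1 was most like Slc25a23 (r = 0.845), Jakmip1 (r = 0.841) and Gm22043 (r = 0.828), Tgfb2 most like Kctd9 (r = 0.716), Amh (r = 0.715) and Efemp2 (r = 0.700), and Tgfb3 most like Tjap1 (r = 0.774), Ngdn (r = 0.748) and Gm45552 (r = 0.743). For the receptors, Tgfbr1 was most like Fut11 (r = 0.811), Unc5d (r = 0.809) and Gm29237 (r = 0.809), Tgfbr2 most like Shc1 (r = 0.752), 4930516B21Rik (r = 0.752) and Tiprl (r = 0.746), and Eng most like Sox2ot (r = 0.853), Mlec (r = 0.845) and Sdf2l1 (r = 0.824). Smad7 was most like Ddx54 (r = 0.774), Sh3pxd2a (r = 0.763) and Cluh (r = 0.756), Fn1 most like Tm6sf1 (r = 0.815), Ubxn2b (r = 0.773) and Sorcs1 (r = 0.749), and Snai1 most like BC064078 (r = 0.835), Nutf2-ps1 (r = 0.724) and Lmna (r = 0.708). In the 6 other libraries the first of these had r between -0.40 (Snai1) and 0.70 (Tgfbr1) with its member, and 5 of the 9 values were below 0.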

How the data were processed

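Polyadenylated RNA of brain hemispheres was sequenced by the study from 24 mice, and the authors deposited 1 table of FPKM values per gene and mouse with the gene lengths used. The submitters' processing notes name GRCm38 and DESeq 1.10.1, and the study's methods state mapping to the Ensembl mouse genome. Which aligner and counter were used, and whether by strand, is not given in the sources used here. FPKM multiplied by gene length was a whole multiple of 1 read for 100% of values (within 0.1 of a read), which gave the reads behind each value.

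Groups came from the treatment labels. Tests used limma 3.58.1 (R 4.3.3) on log2(FPKM + 0.1) with a trend on mean expression, 4 groups in one fit, over 27286 genes above 0 in at least 6 mice, with Benjamini-Hochberg adjustment over all of them. On this log2(FPKM + 0.1) scale the changes of low genes are understated. For members, the mean difference was also tested by two-sided exact permutation of 6 against 6 mice, whose smallest p-value is 0.002165. Within the low-total set there are fewer mice, and the smallest possible p-value is larger. Correlations used 100000 permutations within the 18 libraries. The library sets were split at the widest gap in total FPKM. Alternatives were a pseudocount of 1 or 0.01, no filter or a mean of at least 1 FPKM, the compared groups alone, the replicate number as a block, median-ratio rescaling, limma voom on the recovered reads, the library set as a term, the 18 libraries alone and each mouse left out. Leave-one-out fits with the set as a term were chosen after seeing the data.

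The members, gene lists and tests were chosen with earlier results of these data known. Named genes were the members, in each comparison at most 2 pathway genes per role with the lowest unadjusted p-values under 0.05, and the 3 genes most like each member. Of the genes so named for the library sets, 4 are given. Single results that this rule includes are in part not reported here, although the counts include them. Of 54532 identifiers, 54409 were in GENCODE M21 (53499 with the same coordinates). On simulated data for angiotensin II against vehicle over 28527 genes, the fit called 47 of 67 genes changed 1.5-fold, 61 of 67 changed 2-fold and 66 of 66 changed 4-fold at an adjusted p-value under 0.05. It also called 12 unchanged genes. The simulation gave all genes the same spread between mice and no library-set shift, and changed only genes above a minimum of reads. These shares can be too high for genes such as Tgfb1 and Eng, which varied by 28.7% and 25.8% within groups. Replicate libraries of one group differed by a chi-square of 3.19 to 96.1 per gene, so none was a copy. Whether mice shared a cage or litter is not given in the sources used here. Plots were made with Python 3.11.15 and matplotlib 3.10.9.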

Additional observations from a re-analysis of the deposited data

Results flagged for a closer look

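In 36 sets of 6 mice (9 genes in 4 groups), 4 had a single mouse far above the others by Dixon's test. Chance alone flags about 1 of 20 independent sets. These sets share the same mice and the split into library sets, so that rate does not apply to them. All 4 flagged values came from libraries of the high-total set. In vehicle + AEC replicate 6, Tgfb1 was 2.955 FPKM against 1.47 to 1.95 in the other mice of its group, Tgfb3 was 7.545 FPKM against 4.72 to 5.76, and Eng was 13.85 FPKM against 6.40 to 8.79. In angiotensin II replicate 5, Eng was 13.56 FPKM against 8.44 to 9.62. These are the groups with 1 high-total library, and the other groups have 2.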

How the results depend on the processing

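No member and no other gene had an adjusted p-value under 0.05 in a treatment comparison in the main fit or with voom, which gave 643, 719, 637, 726, 643 and 642 genes at an unadjusted p-value under 0.05 in the order of the report. The number of members at an unadjusted p-value under 0.05 for angiotensin II against vehicle was 1 and became 0 with a mean of at least 1 FPKM (Snai1 is then not tested), with the compared groups alone and over the 18 low-total libraries. For angiotensin II + AEC against angiotensin II and for AECs averaged it went from 0 to 1 with the library set as a term and over the 18 libraries (Eng), and for the interaction from 0 to 1 with the set as a term (Tgfb3). With each mouse left out it was 0 to 1 for angiotensin II against vehicle, vehicle + AEC against vehicle, the interaction and angiotensin II averaged. The last 3 reached 1 without vehicle replicate 1, through Snai1.

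Over all genes the numbers with an unadjusted p-value under 0.05, in the order of the report, were 604, 694, 658, 692, 651 and 667. They were 93, 119, 105, 118, 103 and 101 with a mean of at least 1 FPKM, where fewer genes are tested, and 1053, 1259, 1140, 1146, 1058 and 1188 over the 18 libraries. With the set as a term they were 944 for angiotensin II against vehicle, 1063 for angiotensin II + AEC against angiotensin II, 1210 for angiotensin II averaged and 1121 for AECs averaged. Without a filter they were 969 and 1043 for the first 2 comparisons. With each mouse left out they were 590 to 1188 for vehicle + AEC against vehicle and 617 to 1244 for the interaction, both highest without vehicle + AEC replicate 6. The cause was not tested.

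With the replicate number as a block, 950 genes passed for angiotensin II against vehicle, 1036 for vehicle + AEC against vehicle and 1416 for the interaction, and no member's treatment call changed. Mice of the same number did not deviate together once the library set was removed (median r = -0.01, 0 of 36 pairs over 0.1). Before that, 22 of 36 pairs were over 0.1 and 7 of 24 mice were closest to their own number. Removing the set also removes what libraries of numbers 5 and 6 have in common. This check therefore cannot tell whether mice of the same number shared more than the number. With the block, 9014 genes rather than 14536 differed between the library sets, and the set differences of 4 members (Tgfb2, Tgfbr1, Tgfbr2 and Fn1) had adjusted p-values of 0.0565 to 0.381 in limma, and the high-total libraries have replicate numbers 5 and 6 alone.

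Of 1803 values of the members' treatment differences under the alternatives set at the start, 182 had another sign than the main value, and 0 of those had an unadjusted p-value under 0.05. Depth limits Snai1, which rests on at most 40 reads per mouse. In the simulation, which had no library-set shift and the same spread between mice for all genes, 47 of 67 changes of 1.5-fold were called.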
